A study of Mus musculus with 16 samples.

Results

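The genes described are 30 members of the spindle checkpoint and the anaphase-promoting complex (APC/C) and of the kinases and proteases that act with them. They are a list of names drawn up with earlier results of these data known, kept by the rule that a name is present in the expression table, and all 30 were found among its 25965 genes, measured in mouse oocytes. By role, 13 are APC/C subunits, 1 is the APC/C activator Cdc20, 7 are checkpoint genes, 1 is Aurora kinase A, 5 are genes of the chromosomal passenger complex, 2 are separase and securin and 1 is the Polo kinase Plk1.

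The spindle checkpoint holds a cell in metaphase until every kinetochore is attached to microtubules. Unattached kinetochores recruit MAD and BUB proteins, which bind the activator CDC20 and keep the APC/C from marking securin and cyclin B for destruction. Once the checkpoint is satisfied, the APC/C frees separase, which cuts cohesin so that chromosomes part. A growing oocyte stays in prophase of the first meiotic division, and its chromosomes are parted only after it has reached full size, with transcripts and proteins laid down during growth. The APC/C also acts in oocytes held in prophase, with the coactivator FZR1, and keeps cyclin B low there.

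Oocytes of wild-type C57BL/6 mice (C57BL/6Babr in the methods) were sorted by diameter, a measure of their growth. RNA-seq libraries were made in duplicate (A and B) for oocytes of 10–30 μm, of 40–45 μm, of 50–55 μm and of 60–65 μm, and fully grown germinal vesicle (GV) oocytes are given by 1 column. CpG methylation was measured in 6 libraries by reduced representation bisulphite sequencing (RRBS), 2 for each of the 3 larger classes, and by post-bisulphite adaptor tagging (PBAT), which covers the whole genome, in 1 library at 60–65 μm. The methods place the classes at postnatal days 5–7, 7–12, 9–14 and 13–16 and GV oocytes at day 20, while another listing of the study differs on days, so diameter is used here. Each library pooled many hand-picked oocytes, which were washed to remove somatic cells. Nothing states that A and B came from separate mice, so the p-values below measure the spread between these pools.

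Expression is given in RPKM, a read number divided by exon length and by library size, so that each value is a share of the library and levels can be compared between genes. The RPKM steps imply totals of 99369000 to 191060000 reads in the 8 libraries of growing oocytes. Of these reads, 26.7–29.7% lay in the 15442 genes that were above 0 in every column and for which a length was recovered, and a member rested on 119 to 59863 reads in a library. All 7 oocyte markers were measured, with a summed level of 1763–2231 RPKM. Over the same libraries, from 10–30 to 60–65 μm, the sum of 8 granulosa markers went from 1.87 to 6.46 RPKM in A, most of it Nr5a2, with class means of 1.51 and 4.70 RPKM. The means were 0.168 and 0.535 RPKM for Inha, 0.0490 and 0.233 RPKM for Fshr, 0.166 and 0.452 RPKM for Kitl, 0.0937 and 0.209 RPKM for Amh and 0.0532 and 0.0507 RPKM for Foxl2. The 7 stroma and theca markers summed to 3.92 and 2.80 RPKM at 10–30 μm and to 1.75 RPKM or less in the larger classes. The sum of 4 endothelial markers also grew with size, from 1.06 to 5.93 RPKM in A, through Pecam1 (means of 0.549 and 4.45 RPKM) and Tek (0.552 and 1.15 RPKM), with Kdr at 0.0372 RPKM or less and Cdh5 at 0.0101 RPKM or less. The 5 leukocyte markers summed to at most 0.368 RPKM and the 3 red cell markers found to at most 0.156 RPKM, and 6 genes of dividing cells, which oocytes also express, to 61.7–81.4 RPKM. The part of other cells in the members' values was not tested, and in pooled oocytes fewer cells with a transcript and less of it per cell cannot be told apart. The paper states that the mRNA content of oocytes increases substantially during growth. A fall in RPKM is therefore a smaller share of the library, and the amount of a transcript per oocyte was not measured.

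All 30 members were detected in every library, and their levels covered 0.479 to 85.4 RPKM in growing oocytes. The highest means over the 8 libraries were those of Bub1b at 53.3 RPKM, Pttg1 at 47.6 RPKM and Anapc5 at 40.4 RPKM, and the lowest those of Cdc23 at 0.511 RPKM, Cdc26 at 0.915 RPKM and Aurkb at 2.29 RPKM. Among the 10518 genes tested, those of at least 0.5 RPKM in 2 libraries, the mean of Bub1b lay at percentile 98.2 and that of Cdc23 at 5.83. Subunits that act in a single complex in fixed ratios thus differed in transcript level, with Anapc5 far above Cdc23 in every library. The gene models behind these values have 9500 exon bases for Cdc23, 7180 for Cdc26, 2946 for Aurkb, 4275 for Bub1b and 405 for Anapc13, and the longest is that of Anapc1, with 16714 bases. Exons of 6 members overlap those of another gene, always on the opposite strand, with 13.4% of the annotated exon bases of Cdc23 shared with Kif20a. Anapc13 shares 239 of 2377 annotated exon bases with Cep63, and how many of the 239 lie in the shorter model behind its RPKM was not tested. The shares of annotated bases were 7.09% for Plk1, 4.48% for Cdca8, 2.84% for Cdc20 and 1.01% for Mad1l1. The libraries kept strand, but whether the counting used it is not stated.

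**Figure D1:**
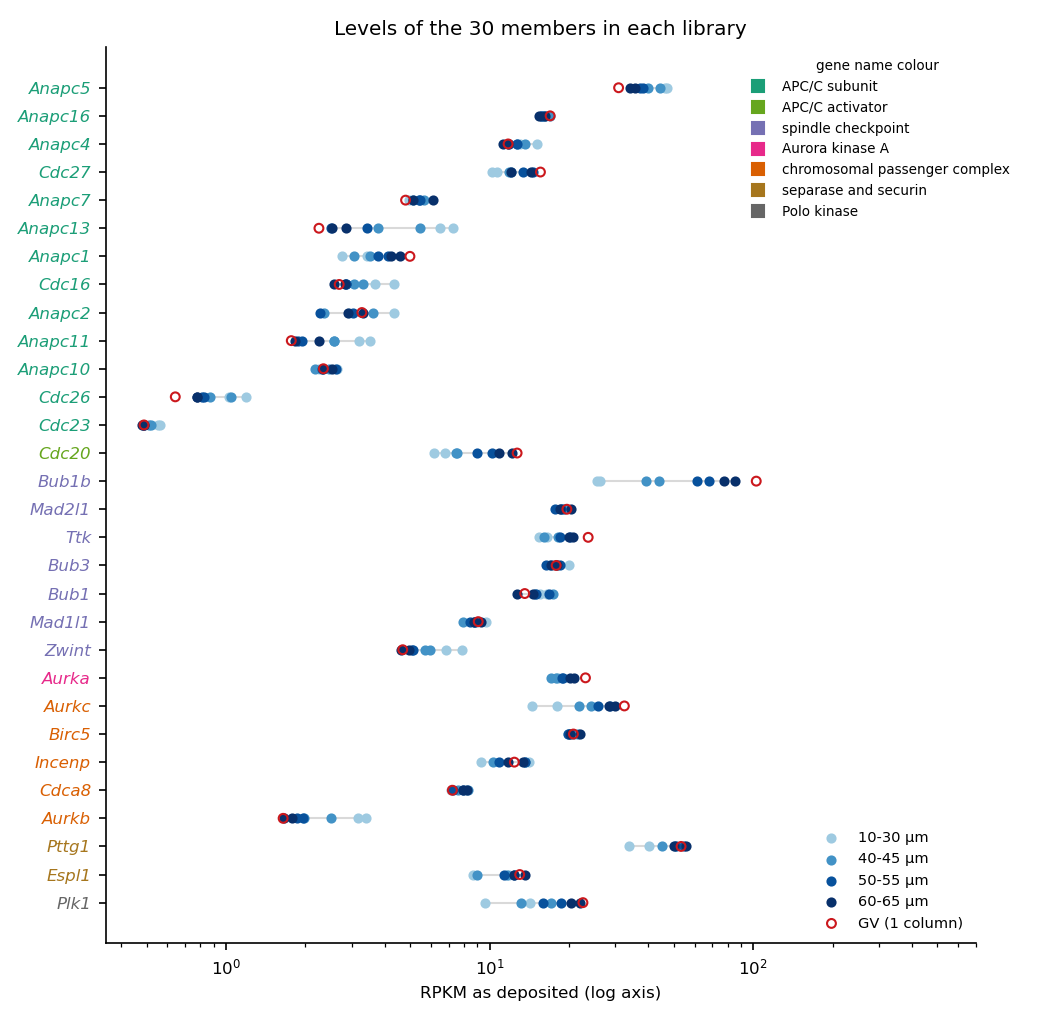
Level of each of the 30 members in RPKM (log axis) in the 8 libraries of growing oocytes (filled points, darker with size) and in GV oocytes (open red circles), with names coloured by role. The levels span 0.479 RPKM for Cdc23 to 85.4 RPKM for Bub1b in growing oocytes, and the points of Bub1b and Anapc13 are spread by size class.

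Genes used in mitosis often carry a cell cycle homology region (core TTTGAA or TTCGAA) and CCAAT boxes close to their start. Promoters of 27 members, from 250 bases before to 50 after the RefSeq start on GRCm38.p6, were searched for these letters on both strands. A core was found in 11 of 27 (40.7%), against 19.2% of 32851 promoters and 13.9% of the 7338 tested genes with an entry. CCAAT was found in 15 of 27 (55.6%), against 37.4% and 40.6%, and a core together with CCAAT in 9 of 27 (33.3%), against 7.52% and 6.36%. Taken apart, TTTGAA was found in 37.0% of the members and TTCGAA in 11.1%, against 17.9% and 1.56% of all promoters. A match is a description and not a bound site. The median number of CpGs was 22 in the members' promoters, from 6 in Aurkc to 50 in Anapc11, and 22 in those of tested genes.

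The promoters shown, each the 200 bases before the RefSeq start, are those of members that the results below turn on (Bub1b, Cdc20, Aurkc and Anapc13) and of 2 whose levels did not pass the test (Bub3 and Espl1). Each runs 5′ to 3′ on the strand of its gene with each core and each CCAAT box, read on either strand, in capitals.
Bub1b (chr2:118598011-118598210, plus strand): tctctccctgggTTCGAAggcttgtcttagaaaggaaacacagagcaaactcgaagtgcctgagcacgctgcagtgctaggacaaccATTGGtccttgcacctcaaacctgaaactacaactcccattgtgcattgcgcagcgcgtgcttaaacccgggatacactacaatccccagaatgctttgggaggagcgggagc
Cdc20 (chr4:118437344-118437543, minus strand): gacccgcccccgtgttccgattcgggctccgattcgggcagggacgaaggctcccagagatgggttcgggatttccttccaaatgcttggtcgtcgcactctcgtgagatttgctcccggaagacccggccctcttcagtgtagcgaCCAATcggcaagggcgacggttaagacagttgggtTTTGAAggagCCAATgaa
Bub3 (chr7:131560170-131560369, plus strand): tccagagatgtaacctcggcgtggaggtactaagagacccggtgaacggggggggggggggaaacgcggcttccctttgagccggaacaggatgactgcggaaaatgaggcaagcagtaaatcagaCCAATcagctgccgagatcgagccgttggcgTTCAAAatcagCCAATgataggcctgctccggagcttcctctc
Espl1 (chr15:102296093-102296292, plus strand): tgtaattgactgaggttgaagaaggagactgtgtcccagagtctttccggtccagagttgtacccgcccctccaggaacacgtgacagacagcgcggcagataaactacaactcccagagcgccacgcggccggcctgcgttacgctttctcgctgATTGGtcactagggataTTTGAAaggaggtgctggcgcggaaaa
Aurkc (chr7:6995185-6995384, plus strand): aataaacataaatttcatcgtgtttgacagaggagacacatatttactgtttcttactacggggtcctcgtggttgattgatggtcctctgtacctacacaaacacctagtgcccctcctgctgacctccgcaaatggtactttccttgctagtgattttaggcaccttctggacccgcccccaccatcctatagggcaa
Anapc13 (chr9:102626096-102626295, plus strand): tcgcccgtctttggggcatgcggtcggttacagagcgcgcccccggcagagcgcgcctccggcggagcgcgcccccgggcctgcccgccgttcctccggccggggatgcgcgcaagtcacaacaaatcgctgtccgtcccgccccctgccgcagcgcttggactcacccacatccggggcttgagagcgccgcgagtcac
In Cdc20 the core lies between 2 CCAAT boxes, with first bases at -53, -18 and -8 from the start at 0. Bub3 has the same order on the other strand of the core, at -74, -43 and -32, and Espl1 has a box at -44 and a core at -27. Bub1b holds TTCGAA at -188, a box at -113 and TTTGAA at 40, past the stretch shown. The stretches of Aurkc and Anapc13 hold none of these letters, though Aurkc has a CCAAT box at 24, past the stretch shown. Anapc13 is rich in CpGs, with 42 in its promoter. By the change from 10–30 to 60–65 μm described next, a core was present in 4 of 8 promoters of members that rose, in 0 of 6 of those that fell and in 7 of 13 of the others. Among all tested genes with a promoter the shares were 14.2% of 2379 that rose, 15.1% of 2223 that fell and 12.7% of 2736 others, and no difference between these groups of members was tested. RefSeq gives the start 58 bases before that of the expression table for Aurkc and 21 bases before it for Bub3. For some members not shown it lies further off, such as 2394 bases past it for Cdca8, 751 for Anapc7 and 270 for Pttg1. The promoters searched for Cdca8 and Anapc7, which both hold a core, are thus not at the start in the expression table.

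From 10–30 to 60–65 μm, 8 of the 30 members rose and 7 fell, and 15 did not pass the test. Higher were Bub1b, Aurkc, Plk1, Cdc20, Pttg1, Anapc1, Ttk and Cdc27, and lower were Anapc13, Aurkb, Anapc11, Zwint, Cdc16, Cdc26 and Anapc5. The test was limma on log2(RPKM + 0.1) after scaling the libraries, with an adjusted p under 0.05 over 10518 genes as the threshold. The 26.7% of members that rose and 23.3% that fell stand beside 32.7% and 30.5% of all genes tested, so that neither share was above that of all genes. The median log2 fold change was 0.04 for the members and 0.02 for all genes. Overlap between classes is read from the deposited RPKM, before scaling. Fold changes below are on this log2 scale and slightly understate those of the lowest genes. With edgeR on the whole reads recovered from the RPKM steps, a test chosen after seeing the data, the same 15 members were called in the same directions.

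**Figure D2:**
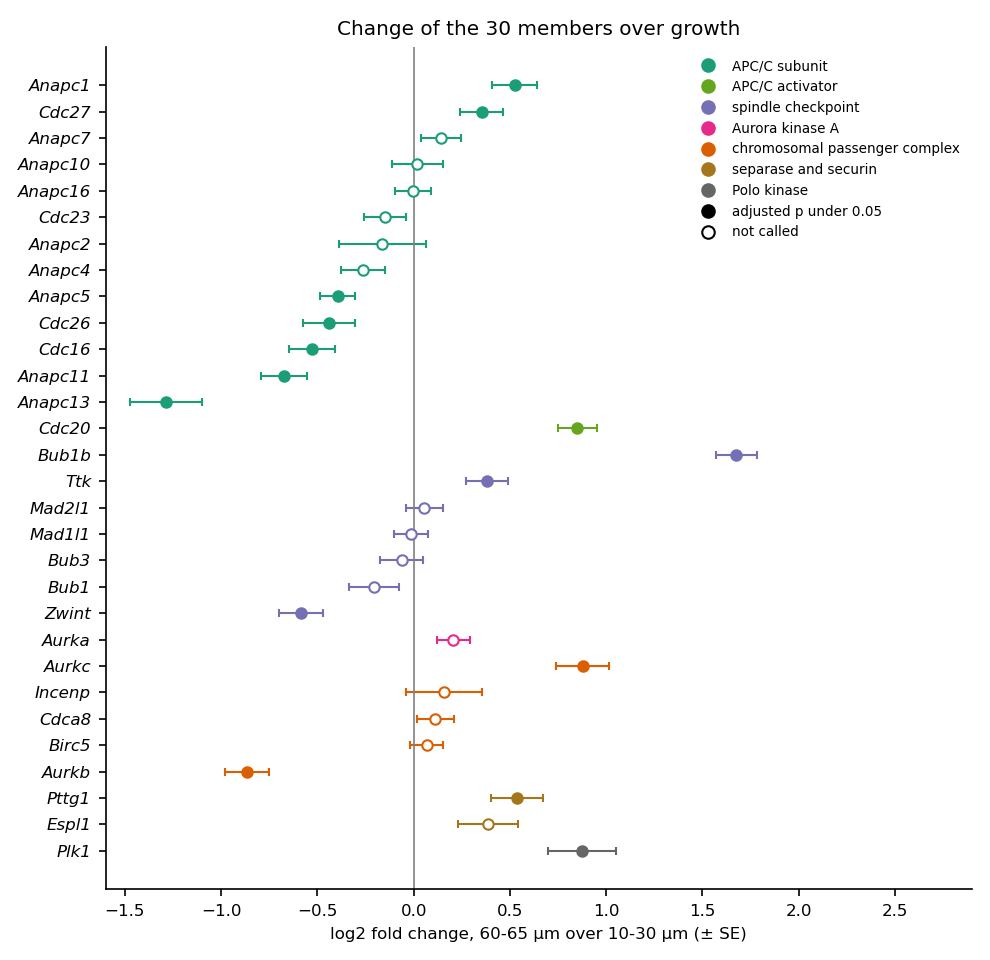
Log2 fold change of each of the 30 members from 10–30 to 60–65 μm with its standard error (bars), 2 libraries a class, coloured by role, filled where the adjusted p is under 0.05. Values run from -1.29 for Anapc13 to 1.68 for Bub1b, and both filled and open points occur among APC/C subunits, checkpoint genes and the passenger complex.

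Among the 7 checkpoint genes, Bub1b and Ttk rose and Zwint fell, beside 32.7% of all genes tested that rose and 30.5% that fell. Bub1b (chr2:118598211-118641591, plus strand) encodes BUBR1, the checkpoint protein that binds CDC20 and blocks the APC/C. It stood at 25.5 and 26.2 RPKM in libraries A and B at 10–30 μm, 44.0 and 39.2 at 40–45 μm, 67.9 and 61.2 at 50–55 μm and 85.4 and 77.4 RPKM at 60–65 μm. No 2 size classes overlapped, and both libraries of each class lay above both of the class before. The rise was 1.68 ± 0.11 (log2 fold change ± SE, 3.20-fold), the largest of any member, with an adjusted p of 1.1e-05.

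Ttk (chr9:83834689-83872390, plus strand) encodes MPS1, the kinase that starts checkpoint signalling at kinetochores. It was measured at 16.5 and 15.4 RPKM at 10–30 μm, 18.2 and 16.1 at 40–45 μm, 20.2 and 18.6 at 50–55 μm and 20.77 and 19.99 RPKM at 60–65 μm. The smallest and largest class did not overlap, while in RPKM 10–30 μm overlapped 40–45 μm, which it did not after scaling, and 50–55 μm overlapped 60–65 μm. Its change of 0.38 ± 0.11 passed the test with an adjusted p of 0.0158, but was lost without 10–30 μm B, 60–65 μm A or 60–65 μm B, where the adjusted p reached 0.077. Zwint (chr10:72654845-72674964, plus strand), a kinetochore protein that helps to anchor checkpoint proteins, gave 7.88 and 6.86 RPKM at 10–30 μm, 5.93 and 5.68 at 40–45 μm, 5.12 and 5.07 at 50–55 μm and 4.62 and 4.95 RPKM at 60–65 μm. Every library of a larger class lay below those of the class before, and Zwint fell by 0.59 ± 0.11 on the log2 scale, with an adjusted p of 0.00215.

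The other 4 checkpoint genes did not pass the test. They are the kinase Bub1, which marks centromeres for shugoshin, its partner Bub3, and Mad1l1 and Mad2l1, which form the template that turns MAD2 into its inhibitory shape. Log2 fold changes were -0.21 for Bub1 (95% interval -0.50 to 0.09), -0.06 for Bub3 (-0.32 to 0.20), -0.02 for Mad1l1 (-0.22 to 0.19) and 0.05 for Mad2l1 (-0.17 to 0.28). Bub1 covered 12.7–17.5 RPKM, Bub3 16.4–20.1 RPKM, Mad1l1 7.91–9.66 RPKM and Mad2l1 17.8–20.3 RPKM over the 8 libraries. Classes of all 4 genes overlapped at least once, and the difference between their changes and that of Bub1b was not tested.

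Of the APC/C genes, the activator and 2 of 13 subunits rose and 5 of 13 fell, where 32.7% of all genes tested rose and 30.5% fell. Cdc20 (chr4:118432901-118437352, minus strand), which brings substrates to the APC/C and is the target of the checkpoint, was at 6.13 and 6.79 RPKM at 10–30 μm, 7.45 and 7.52 at 40–45 μm, 10.2 and 8.97 at 50–55 μm and 12.2 and 10.8 RPKM at 60–65 μm. Each class lay above the one before without overlap. The change was 0.85 ± 0.10, or 1.80-fold, with an adjusted p of 0.000166.

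Both rising subunits are large parts of the complex. Anapc1 (chr2:128610104-128687391, minus strand), the largest scaffold subunit, measured 2.76 and 3.43 RPKM at 10–30 μm, 3.07 and 3.52 at 40–45 μm, 3.76 and 4.13 at 50–55 μm and 4.56 and 4.22 RPKM at 60–65 μm. Its change was 0.52 ± 0.12 with an adjusted p of 0.00463, and library B was above A in the 3 smaller classes. Cdc27 (chr11:104502745-104550620, minus strand), a repeat protein of the arm that holds CDC20, was at 10.2 and 10.7 RPKM at 10–30 μm, 11.9 and 12.1 at 40–45 μm, 13.4 and 14.6 at 50–55 μm and 12.1 and 14.3 RPKM at 60–65 μm. At 0.35 ± 0.11 and an adjusted p of 0.0227 it passed, but not without 10–30 μm A or 60–65 μm B, where the adjusted p reached 0.174.

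The 5 subunits that fell differ in size and place. Anapc13 (chr9:102626296-102634241, plus strand), a small subunit that stabilises the arm, was at 6.46 and 7.25 RPKM at 10–30 μm, 3.76 and 5.45 at 40–45 μm, 2.50 and 3.42 at 50–55 μm and 2.87 and 2.53 RPKM at 60–65 μm. Both libraries of the largest class lay below those of the smallest 2 classes, with the main drop before 50–55 μm. Anapc13 fell by 1.29 ± 0.19 on the log2 scale (2.44-fold lower, adjusted p = 0.000483), the largest drop of any member. Its reads are the fewest, from 119 to 467 in a library, on a short model.

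Anapc11 (chr11:120598421-120608198, plus strand), the RING subunit that with Anapc2 forms the catalytic core, gave 3.53 and 3.20 RPKM at 10–30 μm, 2.57 and 2.57 at 40–45 μm, 1.94 and 1.88 at 50–55 μm and 2.25 and 1.83 RPKM at 60–65 μm. It fell by 0.67 ± 0.12 on the log2 scale, with an adjusted p of 0.00134. Cdc16 (chr8:13757676-13781938, plus strand), a repeat protein of the arm, went from 4.36 and 3.66 RPKM over 3.07 and 3.31 and over 2.84 and 2.86 to 2.57 and 2.82 RPKM in order of size. The smallest class lay above all others, and the drop by 0.53 ± 0.12 on the log2 scale had an adjusted p of 0.00528.

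Cdc26 (chr4:62383654-62408642, minus strand), a small partner of CDC16, stood at 1.19 and 1.03 RPKM at 10–30 μm, 1.04 and 0.873 at 40–45 μm, 0.811 and 0.825 at 50–55 μm and 0.775 and 0.774 RPKM at 60–65 μm. It fell by 0.44 ± 0.13 on the log2 scale with an adjusted p of 0.0198, a call lost without 10–30 μm A, 60–65 μm A or 60–65 μm B, where the adjusted p reached 0.113. Anapc5 (chr5:122787469-122821339, minus strand), a scaffold subunit and the most abundant transcript of the complex, was measured at 46.4 and 46.9 RPKM at 10–30 μm, 40.0 and 44.4 at 40–45 μm, 38.2 and 37.2 at 50–55 μm and 34.1 and 35.6 RPKM at 60–65 μm. No class overlapped the next in RPKM, but after scaling 10–30 and 40–45 μm overlapped, with a change of -0.01 in that step. From the smallest to the largest class Anapc5 fell by 0.39 ± 0.09 on the log2 scale (adjusted p = 0.0053, and 0.0505 without 60–65 μm A).

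The other 6 subunits did not pass the test: the cullin Anapc2, the scaffold protein Anapc4, the repeat proteins Anapc7 and Cdc23, the substrate receptor Anapc10 and the small subunit Anapc16. Their log2 fold changes lay between -0.26 for Anapc4, with an interval of -0.53 to 0.00 and an adjusted p of 0.0763, and 0.14 for Anapc7. Anapc16 was the steadiest, at 15.4–16.9 RPKM and with a change of 0.00 (interval -0.22 to 0.21). Cdc23 (chr18:34630951-34651735, minus strand) stood at 0.560 and 0.552 RPKM at 10–30 μm, 0.511 and 0.518 at 40–45 μm, 0.490 and 0.486 at 50–55 μm and 0.479 and 0.488 RPKM at 60–65 μm. The 10–30 μm libraries were the highest and the 2 largest classes overlapped, and the change of -0.15 (interval -0.40 to 0.10) did not pass. Anapc2 differed more between libraries than between classes, at 2.92 and 4.32 RPKM in A and B at 10–30 μm and 3.32 and 2.91 RPKM at 60–65 μm.

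Of the 3 Aurora kinases, Aurkc rose, Aurkb fell and Aurka did not pass the test. Aurora A works at spindle poles, Aurora B is the enzyme of the chromosomal passenger complex in dividing cells, and Aurora C is its germ cell counterpart. Aurkc (chr7:6995443-7002945, plus strand) was at 18.0 and 14.4 RPKM at 10–30 μm, 24.3 and 21.9 at 40–45 μm, 28.6 and 25.8 at 50–55 μm and 29.9 and 28.5 RPKM at 60–65 μm. The 3 smaller classes did not overlap, the largest 2 did, and both largest classes lay above the others. Its change was 0.88 ± 0.14, or 1.84-fold, with an adjusted p of 0.00073. In the opposite direction, Aurkb (chr11:69045647-69051664, plus strand) was at 3.17 and 3.39 RPKM at 10–30 μm, 1.98 and 2.50 at 40–45 μm, 1.86 and 1.97 at 50–55 μm and 1.79 and 1.66 RPKM at 60–65 μm. Each class lay below the one before without overlap. Aurkb fell by 0.87 ± 0.12 on the log2 scale (1.82-fold lower, adjusted p = 0.000301), and in every library Aurkc had the higher RPKM. Aurka (chr2:172356190-172370535, minus strand) was at 18.2 and 18.1 RPKM at 10–30 μm, 17.0 and 17.9 at 40–45 μm, 18.9 and 19.0 at 50–55 μm and 20.9 and 20.2 RPKM at 60–65 μm. Both libraries of the largest class were the highest, but the change of 0.21 ± 0.08 (interval 0.01 to 0.40) did not pass, with an adjusted p of 0.0586.

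The other 3 genes of the passenger complex did not pass the test. They are the scaffold Incenp, survivin (Birc5) and borealin (Cdca8), which bring the kinase to centromeres. Their log2 fold changes were 0.16 for Incenp (interval -0.30 to 0.61), 0.07 for Birc5 (-0.13 to 0.26) and 0.11 for Cdca8 (-0.11 to 0.33). Birc5 covered 19.8–22.1 RPKM and Cdca8 7.12–8.30 RPKM. Incenp was at 9.31 and 14.1 RPKM in A and B at 10–30 μm, the largest gap between duplicates of that class among members on the log2 scale, and at 13.4 and 11.8 RPKM at 60–65 μm.

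Securin rose and separase did not pass the test. Pttg1 (chr11:43420250-43426251, minus strand) encodes securin, the inhibitor of separase that the APC/C destroys. It was at 40.4 and 33.8 RPKM at 10–30 μm, 50.5 and 45.2 at 40–45 μm, 54.6 and 50.9 at 50–55 μm and 50.0 and 55.5 RPKM at 60–65 μm, so that the smallest class stood below the other 3. The change was 0.54 ± 0.13 with an adjusted p of 0.00811, and 0.0648 without 60–65 μm B. Espl1, the gene of separase, covered 8.64–13.7 RPKM, and its change of 0.38 ± 0.16 had an adjusted p of 0.0584.

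Plk1 (chr7:122159437-122169875, plus strand), the Polo kinase that acts in spindle assembly and in the release of cohesin, rose. Its values were 9.62 and 14.2 RPKM at 10–30 μm, 13.2 and 17.1 at 40–45 μm, 16.005 and 18.7 at 50–55 μm and 22.0 and 20.4 RPKM at 60–65 μm. In RPKM neighbouring classes overlapped below 60–65 μm, though after scaling 10–30 and 40–45 μm did not, and the 60–65 μm libraries were both above all others. The change was 0.87 ± 0.18, or 1.83-fold, with an adjusted p of 0.00297. Library B was above A in the 3 smaller classes and below it at 60–65 μm for Plk1 and for 11 of the 30 members in all, among them the called members Anapc1, Anapc13 and Aurkb, and the cause was not tested.

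**Figure D3:**
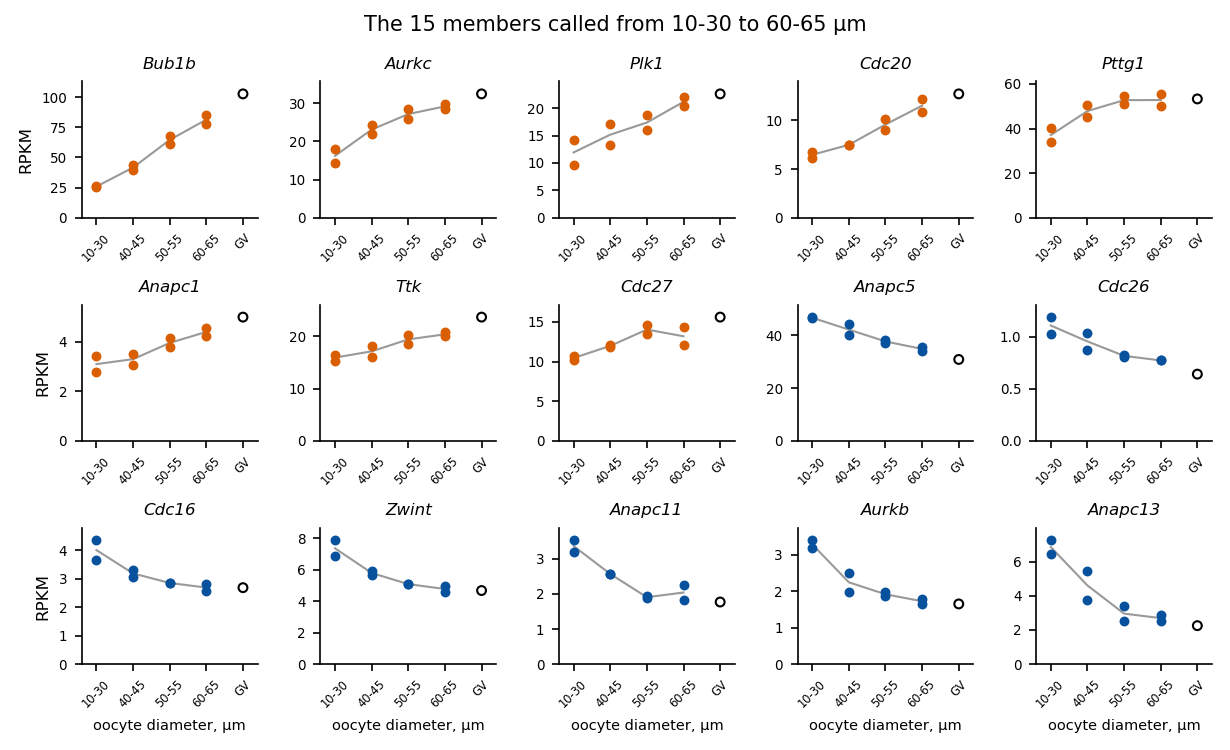
RPKM of the 15 members that passed the test from 10–30 to 60–65 μm, in each library (filled points, orange for rising and blue for falling members) with class means joined by a line, and in GV oocytes (1 open point), with axes from 0. Bub1b rises from 25.5 and 26.2 to 85.4 and 77.4 RPKM and Anapc13 falls from 6.46 and 7.25 to 2.87 and 2.53 RPKM, while the others change by 1.84-fold or less in either direction.

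The steps between neighbouring classes share libraries with each other and with the comparison above. From 10–30 to 40–45 μm, 4 members rose, or 13.3%, against 16.7% of all genes, and 1 fell, or 3.33%, against 7.51%. The counts over all genes move with single libraries: 1753 genes were higher and 790 lower, but 784 and 242 without 40–45 μm A, 1100 and 326 without 10–30 μm A and 1275 and 502 without 40–45 μm B. Those that rose were Bub1b by 0.82 ± 0.11 (adjusted p = 0.00195), Aurkc by 0.65 ± 0.14 (adjusted p = 0.0125), Pttg1 by 0.50 ± 0.13 (adjusted p = 0.0295) and Cdc20 by 0.34 ± 0.10 (adjusted p = 0.0406), all on the log2 scale. Aurkb fell by 0.41 ± 0.12 on that scale, with an adjusted p of 0.0351. Scaling matters in this step: the share of all calls that were higher was 68.9%, 41.7% without scaling and 51.4% after quantile normalization, and the median of all genes was 0.06 and, without scaling, -0.07. Without scaling, Bub1b and Aurkc were the members called higher and Aurkb and Zwint those called lower, and the members' median of 0.14, or 0.01 without scaling, stayed above that of all genes. The call of Bub1b held under all alternatives, with an adjusted p of at most 0.0162. That of Aurkc was lost without 40–45 μm A (adjusted p = 0.0791). Those of Cdc20, Pttg1 and Aurkb were lost without most single libraries.

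From 40–45 to 50–55 μm, 1 member rose and 1 fell, or 3.33% each, against 5.12% and 4.73% of all genes. Those shares, of 538 genes higher and 498 lower, rest on single libraries. Limma called 0 genes in either direction without 40–45 μm B (965 higher and 1263 lower at an unadjusted p under 0.05) or without 50–55 μm A (774 and 923). Without another library the calls were 180 higher and 68 lower (50–55 μm B), 377 and 164 (40–45 μm A), 324 and 204 (60–65 μm A), 298 and 217 (60–65 μm B), 821 and 890 (10–30 μm A) or 826 and 898 (10–30 μm B). Bub1b rose by 0.57 ± 0.11 on the log2 scale (adjusted p = 0.0212), a call lost without 40–45 μm B, 50–55 μm A or 50–55 μm B, where the adjusted p reached 0.186. Anapc11 fell by 0.47 ± 0.12 on that scale (adjusted p = 0.0448), a call lost without each single library of the 3 larger classes, without scaling, after quantile normalization, without the filter on low values and by edgeR, with an adjusted p of up to 0.226. Of all calls in this step, 51.9% were higher and, without scaling, 66.2%. From 50–55 to 60–65 μm limma called 0 members and 0 genes (0% in each direction), as did edgeR, with 677 genes higher and 796 lower at an unadjusted p under 0.05. Bub1b had the largest estimate of a member in that step, at 0.29 with an interval of 0.04 to 0.54.

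GV oocytes are given by 1 column, and their values are described with no test. In the deposited RPKM, before scaling, the value lay above both 60–65 μm libraries for 11 members, below both for 7 and between them for 12. Over all 10518 genes it lay above for 3689 and below for 4857. On the log2 scale and after scaling, the median difference from the 60–65 μm mean was 0.05 for the members and 0.00 for all genes. The largest values upward were those of Bub1b, at 103 RPKM in GV oocytes (0.38), Cdc27 at 15.6 RPKM (0.29) and Ttk at 23.7 RPKM (0.25). Downward they were those of Anapc13 at 2.25 RPKM (-0.21), Cdc26 at 0.643 RPKM (-0.20) and Anapc7 at 4.80 RPKM (-0.18). Anapc7 (chr5:122421693-122444912, plus strand) had shown 4.93 and 5.40 RPKM at 10–30 μm, 5.12 and 5.64 at 40–45 μm, 5.38 and 5.45 at 50–55 μm and 6.13 and 5.12 RPKM at 60–65 μm. The first 5 of these 6 members lie, in GV oocytes, further along the direction of their change during growth, but the 6 were picked by the size of their difference. Other called members, such as Zwint and Cdc16, lay between the 60–65 μm libraries.

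Of a list of 37 other genes of the same processes, 36 were tested, and from 10–30 to 60–65 μm 13 rose (36.1%) and 9 fell (25.0%), beside 32.7% and 30.5% of all genes. Among 7 genes of the cyclin B kinase and of kinases of the spindle, 5 rose and 1 fell. Ccnb3, a cyclin needed for anaphase of the first meiotic division, rose by 1.77 ± 0.20 on the log2 scale, Haspin, the histone kinase that docks the passenger complex, by 1.55 ± 0.12, and Ccnb1, the APC/C substrate cyclin B1, by 1.12 ± 0.13. Among 6 cohesin genes tested, 3 rose and 2 fell, with Smc1b, the meiotic cohesin core protein, lower by the largest margin of the list. Smc1b went from 31.7 and 29.2 RPKM to 4.01 and 5.10 RPKM and fell by 2.70 ± 0.15 on the log2 scale, and Stag3, another meiotic cohesin subunit, fell by 0.66 ± 0.13. Rec8, the meiotic kleisin, was the gene not tested, at 0.00571 RPKM or less in every library, and was named after its values were seen. Whether the deposited gene model of Rec8 accounts for this value was not tested. Among 15 outer kinetochore genes 2 rose and 4 fell, and Spc24, a subunit of the microtubule-binding NDC80 complex, fell by 0.76 ± 0.11. Of 8 further APC/C genes 3 rose and 2 fell, with the inhibitor Fbxo43 (EMI2) higher by 0.66 ± 0.11 and the ubiquitin-conjugating enzyme Ube2c, which starts chains for the APC/C, lower by 0.74 ± 0.19 on that scale.

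Methylation of the members was described and not tested, and an exact permutation test of 2 libraries against 2 cannot go below a two-sided p of 0.333. Percent methylated at a start is the share of methylated calls at CpG cytosines with at least 5 reads. Over a gene body it is the mean of the percent at each such cytosine. Within 500 bp of the gene start, RRBS covered 25 to 26 members a library, with medians of 0.239–0.603% and all under 10%, as were 97.6–99.6% of all genes. The highest value was that of Pttg1 in 50–55 μm B, at 4.46% of 471 calls, where the other 5 libraries gave 0.946% or less. In the same library Aurkb was at 4.26% of 329 calls at 4 positions, and at 1.49% or less in the others. Bub1b, Aurkc, Anapc7 and Cdca8 had no RRBS value. In the PBAT library all 30 starts were covered, with a median of 2.75% against 3.45% for all genes, and 29 were under 10%, as were 86.0% of all genes. Aurkc was the exception, at 16.5% or 22 of 133 calls at 19 positions (95% Wilson interval 11.2–23.8%, for counting error only), and its promoter has the fewest CpGs. This depends on the coverage: with at least 1 read a position Aurkc is at 13.2%, with at least 10 it has no value, and 17 of 19 members are under 10%, all but Cdc27 at 16.4% of 110 calls and Incenp at 11.1% of 72 calls. The start of Bub1b, with the steepest rise in RNA, gave 7.95% of 88 calls.

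Gene bodies, from 1 kb past the start to the end, were covered for 28 members in the PBAT library. Their median methylation was 46.1%, beside 48.2% for 8861 genes of at least 0.5 RPKM at 60–65 μm and 9.20% for 9899 genes below it. The members ran from 8.36% for Cdc20 to 77.4% for Anapc13, a range that moves with coverage: with at least 1 read a position 30 members ran from 4.44% for Birc5 to 66.8% for Anapc2, and with at least 10 reads 15 members ran from 19.5% for Aurkb to 78.4% for Incenp. With at least 5 reads, near the top were Zwint at 71.1% and Anapc2 at 66.5%, and near the bottom Birc5 at 10.7%, Bub3 at 17.6%, Pttg1 at 20.9% and Aurkb at 21.2%. Pttg1, Birc5 and Bub3 are among the more abundant members, at 52.8, 21.1 and 17.6 RPKM at 60–65 μm, while Anapc13, with the highest body methylation, was at 2.70 RPKM and Aurkb, near the bottom in methylation, at 1.72 RPKM. The 4 lowest of these rest on few positions, with 23 for Cdc20, 17 for Birc5, 17 for Bub3 and 18 for Pttg1, against 1422 for Mad1l1. Bub1b, at 81.4 RPKM, had a body methylation of 46.0% over 166 positions, close to the median of the members.

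**Figure D4:**
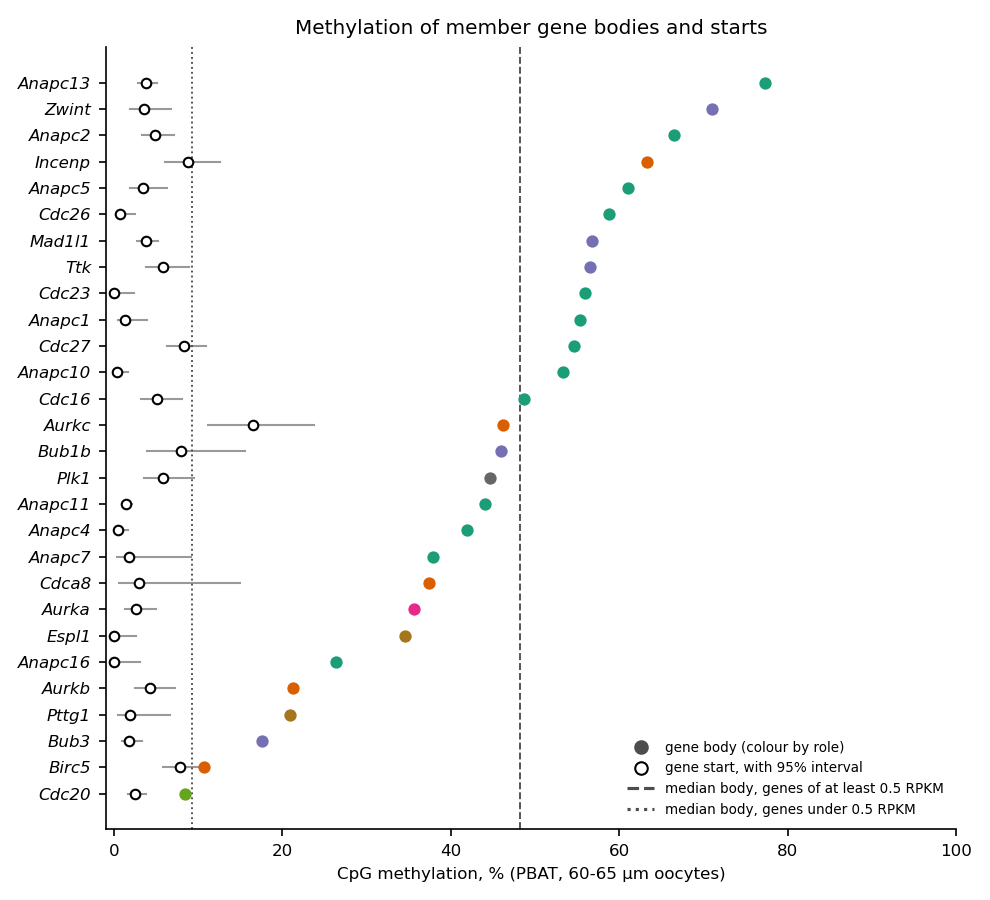
CpG methylation in percent in the PBAT library of 60–65 μm oocytes for the 28 members with a covered body, as the mean over body positions (filled, coloured by role as in the plot of fold changes) and the share of methylated calls at the start (open, with its 95% Wilson interval). Bodies run from 8.36% for Cdc20 to 77.4% for Anapc13 around the medians of 48.2% and 9.20% for genes of at least and under 0.5 RPKM (dashed and dotted lines), and only the start of Aurkc, at 16.5%, lies above 10%.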

How the data were processed

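RNA was measured in 8 libraries of growing oocytes and 1 column of GV oocytes, and CpG methylation in 6 RRBS libraries and 1 PBAT library. The deposited expression table holds RPKM per gene, and the authors trimmed reads and aligned them to GRCm38; the submitters' processing notes name Trim Galore 0.2.8 and 0.3.5, TopHat2 2.0.9 and Bismark 0.10.0 and 0.14.0. Which tool made the table is not given in the sources used here. The deposited methylation files hold, per CpG cytosine, the percent methylated and the counts of methylated and unmethylated calls, with 30000113 to 57319823 calls in an RRBS library and 99039028 in the PBAT library, and the percent was recomputed from the counts.

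The 30 members, the 37 pathway genes and the marker lists were chosen with earlier results of these data known. Libraries were scaled by a trimmed mean of log ratios (30% of genes by ratio and 5% by level) and genes of at least 0.5 RPKM in 2 libraries were tested with limma 3.58.1 in R 4.3.3 on log2(RPKM + 0.1), with a variance trend, the 8 libraries in 1 model and Benjamini-Hochberg adjustment. RPKM times exon length gave a whole number of reads, within 0.02 reads, for 99.5–100% of 219–250 single-exon genes a library and, with a fitted length, for 15442 of 15444 genes above 0 in all columns. On these recovered counts edgeR 4.0.16 (quasi-likelihood) was run, a test chosen after seeing the data. It called 3240 genes higher and 3380 lower from 10–30 to 60–65 μm. Tested on simulated data for that comparison (10512 genes, 200 changed), limma recovered 37.3% of genes changed 1.5-fold, 95.5% at 2-fold and 98.5% at 4-fold, with 13 unchanged genes called. The deposited data gave many more calls by limma, with 3438 genes higher and 3209 lower. The simulation also had no shared deviation of the letters A and B, so its shares need not hold for the data.

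Values in every library are given for members that passed a test, for the 3 highest and the 3 lowest by mean, for the Aurora kinases and for the 3 largest differences in either direction in GV oocytes, and up to 8 pathway genes are named by the size of their change. Starts needed 3 and bodies 10 CpG positions with at least 5 reads. Alternatives were other pseudocounts, filters, scalings and coverage minimums, a replicate block and leaving out each library.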

Additional observations from a re-analysis of the deposited data

How the results depend on the processing

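Of the 15 calls from 10–30 to 60–65 μm, 10 held under all 17 alternatives, 8 of which leave out 1 library. Leaving out a library gave 5–9 members higher and 5–8 lower, with the 5 higher found without 60–65 μm B. It gave 1–4 higher and 0–2 lower from 10–30 to 40–45 μm, 0–1 higher and 0–2 lower from 40–45 to 50–55 μm and 0 in both directions from 50–55 to 60–65 μm. When a class was left with 1 library, that library was assumed to vary like the others.

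From 10–30 to 40–45 μm, 2 members were higher without scaling and 2 by edgeR, and 0 were lower without the filter on low values and 2 without scaling. From 40–45 to 50–55 μm, 0 were lower without the filter, 0 without scaling and 0 by edgeR. No member changed direction under any of these alternatives in a comparison where it was called.

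Letters A and B deviated together among the 3 smaller classes (correlations of A minus B over 10518 genes of 0.60, 0.59 and 0.67) but not with 60–65 μm (-0.23, -0.03 and 0.11), so that not every pair of classes was correlated and the letters were not taken as pairs; within the 3 smaller classes the data hint at a pairing. With the letter as a replicate block, 6 members were higher and 1 lower from 10–30 to 40–45 μm (Cdc27 and Plk1 added), beside 2280 and 1123 of 10518 genes. From 40–45 to 50–55 μm 1 was higher and 2 lower (Anapc13 added), beside 936 and 1032 genes. From 10–30 to 60–65 μm 10 were higher and 8 lower (Aurka, Espl1 and Anapc4 added), beside 3743 and 3538 genes. From 50–55 to 60–65 μm 146 genes were higher and 83 lower, 0 of them members. The counts over all genes thus grew with the block as well.

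Within 1 kb of the start, the members' medians in RRBS at 60–65 μm were 0.584% in A and 0.459% in B, with a mean of 0.521%, and the median of gene bodies was 32.5% over whole genes, which include the start. Depth limits Anapc13, with 119 to 467 reads a library, and the bodies of short genes, with 15 positions for Aurkc and 17 each for Bub3 and Birc5.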
